A study of Sus scrofa with 8 samples.

Results

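The proteasome is the large protease that degrades proteins tagged with ubiquitin. Its barrel-shaped 20S core is built from rings of alpha and beta subunits, and 3 of the constitutive beta subunits carry the cutting sites. A 19S regulator caps the barrel, with a ring of ATPases that unfold the substrate and non-ATPase subunits that bind ubiquitin chains and remove them. Interferon signalling is known to exchange the constitutive catalytic subunits for immunoproteasome subunits and to raise the PA28 activator, and the transcription factor NFE2L1 is known to raise subunit genes together when proteasome activity drops.

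The genes described are the gene IDs whose symbol starts with PSMA to PSMG and a number. The symbol came from the authors' m6A peak lists or, where these named none, from an Ensembl table of pig gene names. The search found 57 gene IDs, of which 39, under 36 symbols, had a row among the 22676 gene IDs of the expression table. These 39 comprised 7 alpha subunits, 4 beta subunits, 4 immunoproteasome IDs, 5 ATPases and 10 non-ATPase subunits of the 19S regulator, 4 activator genes and 4 IDs of assembly chaperones. The last, PSMC3IP, is caught by its name alone and encodes a recombination factor, not a subunit. PSMB8, PSMB9 and PSMD5 each had 2 gene IDs, between which reads can have been split, so their values are uncertain. PSMA2, PSMB1, PSMB2, PSMB3, PSMB10, PSMC4, PSMD7, PSMD9, PSMD10, PSMF1 and PSME3IP1 were not analysed here, and the symbols PSMB5, PSMG2 and PSMG4 were not matched.

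Adipose tissue came from 2 Jinhua males, of a breed that the labels call fatty, and 2 Landrace males, of a breed that they call leaner, all aged 180 days. No treatment is named, and the depot is not given. Each animal gave an input RNA library and a library of RNA fragments pulled down with an antibody against N6-methyladenosine (m6A), a methyl mark within mRNA. The 2 animals of a breed are its only replicates, and 2 against 2 allow no two-sided permutation p under 0.333.

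Input levels are in FPKM (fragments mapped to a gene, divided by its length and by the library's total), and read depth is unknown. The libraries differed beyond breed. Summed FPKM of 10 skeletal muscle markers was 83.8 and 135 in Jinhua replicates 1 and 2, and 79.6 and 2986 in Landrace replicates 1 and 2, with all 10 highest in Landrace replicate 2. Summed FPKM of 12 adipocyte markers was 9575 and 25479 in the Jinhua animals, and 28271 and 21213 in the Landrace animals. The sum is weighted to its most abundant genes. Of it, FASN made up 1637 and 4782 in Jinhua, and 11245 and 4859 in Landrace. SCD made up 1230 and 10688 in Jinhua, and 1049 and 7065 in Landrace. Of the 12, 1 (PPARG) had both Jinhua values above both Landrace values and 4 had both below. Among all 13693 tested genes these shares were 30.2% and 18.1%. No marker of either list was listed at 0 in all 4 libraries. In the same order of animals, 12 macrophage and monocyte markers summed to 1305, 974, 849 and 1451. The sums were 71.2, 45.1, 81.7 and 79.7 for 11 lymphocyte markers, and 543, 343, 687 and 446 for 6 endothelial ones. For 7 fibroblast and progenitor markers they were 3134, 5975, 3311 and 11735. For 6 smooth muscle and pericyte IDs they were 702, 249, 719 and 468. For 2 blood markers they were 1037, 481, 308 and 1151. Their part in the levels was not tested. In bulk tissue, fewer cells of a type and less RNA per cell cannot be told apart.

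Most proteasome genes had more input RNA in both Jinhua animals than in both Landrace animals. The summed FPKM of the 39 IDs was 3316 and 3439 in Jinhua, and 1956 and 2536 in Landrace. PSMA8 and PSMB11, known in other mammals as testis and thymus subunits, were listed at 0 in all 4 libraries, and the other 37 passed the filter of a mean FPKM of at least 1. Of these 37, 31 had both Jinhua values above both Landrace values and 0 had both below. Without PSMC3IP, which is no subunit, 30 of 36 had both above and 0 had both below. Among all 13693 tested genes these shares were 30.2% above and 18.1% below. A Jinhua minus Landrace log2(FPKM + 1) difference above 0 was found for 34 of the 37, against 58.0% of all tested genes. Without PSMC3IP it was found for 33 of 36. The median difference was 0.69 over the 37 genes and 0.15 over all tested genes.

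No proteasome gene passed the test for a single gene. With limma and Benjamini-Hochberg adjustment over all 13693 genes, 0 of 37 had an adjusted p under 0.05, where 0.0365% of all genes did, and their adjusted p ranged from 0.496 to 0.945. At an unadjusted p under 0.05, 5 were higher in Jinhua (PSMC6, PSMC1, PSMD6, PSMD1 and PSME2) and 0 were lower, against 5.85% and 3.87% of all genes. That count of 5 was 1 under median-ratio scaling and 1 under quantile normalization, beside 501 and 676 of all 13693 genes. With no filter on low values it was 10, beside 1162 of 22676. Fits without an animal leave 1 library in a breed, so their counts are not given. The direction of the group is therefore given as a count, and no single gene is called.

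The difference was not equal for both Landrace animals. Landrace replicate 1 held the lowest value for 29 of the 37 genes and for 40.5% of all tested genes. Landrace replicate 2 held the lowest for 6 of the 37 and for 17.7% of all tested genes. Set against Landrace replicate 2, the Jinhua animals were higher for 35 and 36 of the 37 genes, beside 58.7% and 51.8% of all genes. The median log2 differences were 0.50 and 0.44, beside 0.15 and 0.03 over all genes. Set against Landrace replicate 1, the Jinhua animals were higher for 33 and 34, beside 59.7% and 54.8% of all genes. Here the medians were 0.81 and 0.93, beside 0.27 and 0.12 over all genes. Within a breed, Jinhua replicate 1 and 2 differed by a median of -0.02, and Landrace replicate 1 was lower than replicate 2 by a median of -0.39. Without Landrace replicate 1 the median over the 37 genes was 0.47, and without Landrace replicate 2, the animal with the muscle markers, it was 0.91. The part of muscle RNA in the levels was not tested.

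**Figure D1:**
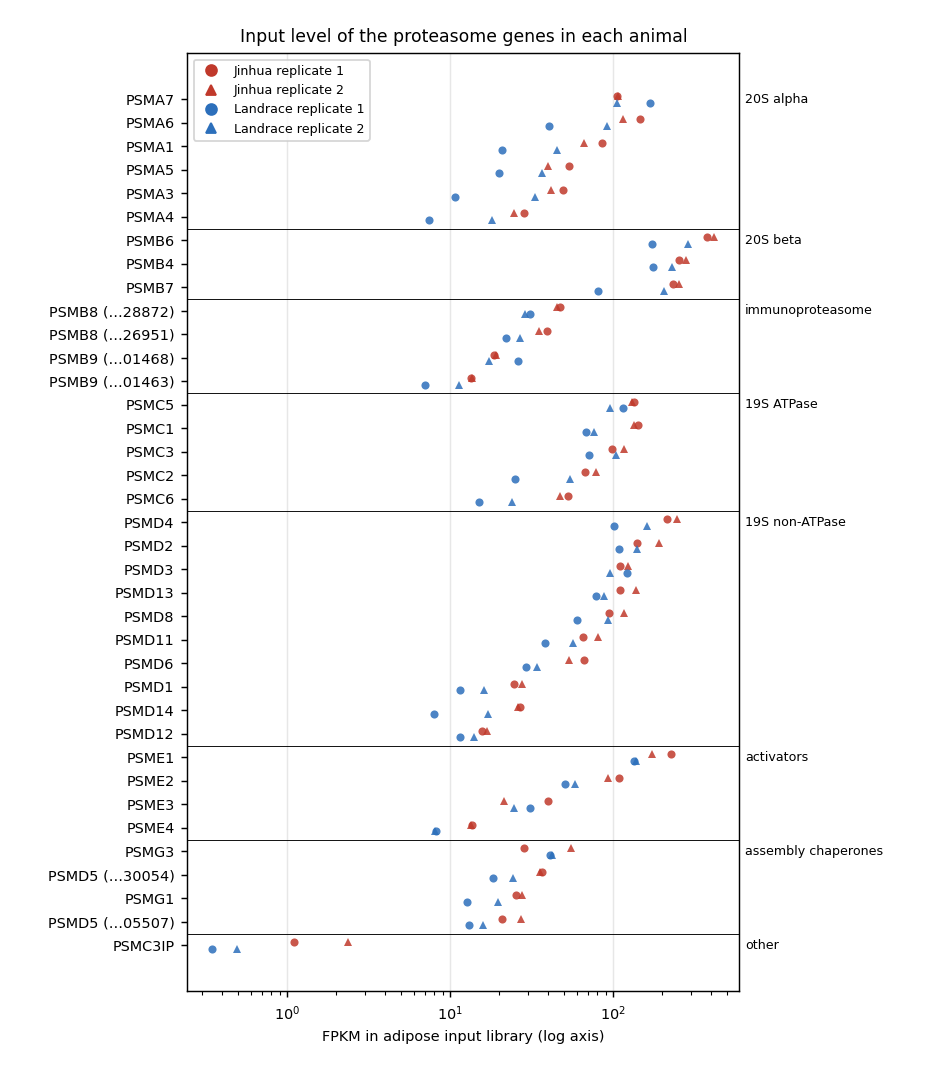
Input FPKM (log axis) of the 37 tested proteasome genes, 1 row per gene ID, with Jinhua animals in red above Landrace animals in blue and the marker shape giving the replicate. The red points lie right of both blue points for 31 of the 37, and the blue circle, Landrace replicate 1, is the leftmost point for 29.

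The alpha subunits, which form the outer rings and gate of the 20S core, had a median difference of 1.11 over 6 genes, of which 5 had the breeds apart. Without Landrace replicate 1 this median was 0.48, beside 0.59 for activators and 0.48 for assembly genes, and without Landrace replicate 2 it was 1.69. PSMA1 had 85.9 and 66.6 FPKM in the Jinhua animals and 20.9 and 45.0 FPKM in the Landrace animals (log2 difference 1.27 ± 0.48 SE, limma adjusted p = 0.496). PSMA4 had 28.5 and 24.7 FPKM in the Jinhua animals and 7.37 and 18.0 FPKM in the Landrace animals (1.13 ± 0.49, adjusted p = 0.497). In both genes the breeds did not overlap, and the distance between the Landrace animals exceeded that between the Jinhua animals. PSMA3, PSMA5 and PSMA6 followed the same order, with differences of 1.21, 0.75 and 1.09. PSMA7 went the other way, with 106 and 107 FPKM in the Jinhua animals and 168 and 106 FPKM in the Landrace animals. Here Landrace replicate 1 was the highest library and the other 3 lay together, and without that animal the difference was 0.0094.

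Among the beta subunits of the inner rings were the most abundant proteasome transcripts. PSMB6, which carries the caspase-like site, had 375 and 418 FPKM in the Jinhua animals and 174 and 286 FPKM in the Landrace animals (log2 difference 0.82 ± 0.42 SE, limma adjusted p = 0.512). PSMB4, a subunit without a cutting site, had 253 and 282 FPKM in the Jinhua animals and 175 and 229 FPKM in the Landrace animals (0.41 ± 0.37, adjusted p = 0.627). PSMB7, which carries the trypsin-like site, had 232 and 255 FPKM in the Jinhua animals and 81.1 and 205 FPKM in the Landrace animals (0.91 ± 0.56, adjusted p = 0.544). All 3 were apart between the breeds, and all 3 were lowest in Landrace replicate 1. Their median difference of 0.82 was 0.25 without that animal and 1.18 without Landrace replicate 2. Over the 20S core as a whole, 8 of 9 tested genes were apart and higher in Jinhua, with a median of 0.91. Leaving out Landrace replicate 1 gave 0.44 for this median, and leaving out the other Landrace animal gave 1.57.

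The immunoproteasome subunits had lower FPKM levels than PSMB4, PSMB6 and PSMB7 in every library, and their median difference of 0.58 was 0.36 without Landrace replicate 1. PSMB8, the interferon-induced counterpart of PSMB5, had 39.3 and 35.2 FPKM in the Jinhua animals and 22.0 and 26.7 FPKM in the Landrace animals under ENSSSCG00000026951. Under ENSSSCG00000028872 it had 47.4 and 45.1 FPKM in the Jinhua animals and 31.1 and 28.9 FPKM in the Landrace animals. Both IDs were apart, with log2 differences of 0.60 and 0.61 (limma adjusted p = 0.512 and 0.509). PSMB9, the counterpart of PSMB6, gave no single answer. ENSSSCG00000001463 had 13.5 and 13.7 FPKM in the Jinhua animals and 7.04 and 11.3 FPKM in the Landrace animals, a difference of 0.55. ENSSSCG00000001468 had 18.5 and 19.2 FPKM in the Jinhua animals and 26.2 and 17.3 FPKM in the Landrace animals, a difference of -0.17, with the breeds overlapping.

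The input RNA of PSMB9 was also read as a ratio to that of PSMB6 within each library. Such a ratio does not measure the exchange of subunits in the core. PSMB6 itself had a difference of 0.82, beside 0.55 and -0.17 for the PSMB9 IDs. On the log2 scale the ratio was -4.70 and -4.84 in the Jinhua animals and -4.45 and -4.55 in the Landrace animals for the first PSMB9 ID. For the second ID it was -4.27 and -4.38 in the Jinhua animals and -2.69 and -3.97 in the Landrace animals. With either ID the ratio was lower in both Jinhua animals than in both Landrace animals, by -0.27 and -0.99 (exact permutation test, two-sided, p = 0.333 for each and after adjustment over both, the smallest p that 2 against 2 can give). Without Landrace replicate 1 these differences were -0.22 and -0.35, and without Landrace replicate 2 they were -0.32 and -1.64. The ratios of PSMB8 to PSMB5 and of PSMB10 to PSMB7 could not be formed.

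Of the ATPases that form the unfolding ring of the 19S regulator, 4 of 5 were apart and higher in Jinhua, with a median of 0.94. PSMC6 had 53.1 and 47.4 FPKM in the Jinhua animals and 14.96 and 23.9 FPKM in the Landrace animals. Its difference of 1.36 ± 0.36 SE was the largest and had the smallest p of the 37 genes, and it did not pass adjustment (limma adjusted p = 0.496). PSMC1 had 143 and 135 FPKM in the Jinhua animals and 67.7 and 76.1 FPKM in the Landrace animals (0.94 ± 0.32, limma adjusted p = 0.496). In these genes both Landrace animals lay well under the Jinhua pair. PSMC2 and PSMC5 were apart as well, with differences of 0.95 and 0.34, while PSMC3 overlapped at 0.31. Without Landrace replicate 1 the class median was 0.47.

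The non-ATPase subunits of the 19S regulator were apart and higher in Jinhua for 9 of 10 genes, with a median of 0.60. PSMD1, a large scaffold subunit, had 24.7 and 27.6 FPKM in the Jinhua animals and 11.6 and 16.1 FPKM in the Landrace animals (log2 difference 0.89 ± 0.32 SE, limma adjusted p = 0.496). PSMD6, a lid subunit, had 66.6 and 53.3 FPKM in the Jinhua animals and 29.4 and 34.0 FPKM in the Landrace animals (0.89 ± 0.32, adjusted p = 0.496). PSMD14, the deubiquitinase that clips ubiquitin chains from the substrate, had 26.9 and 26.2 FPKM in the Jinhua animals and 8.003 and 17.1 FPKM in the Landrace animals (1.11 ± 0.44, adjusted p = 0.496). The breeds did not overlap in any of these genes, and PSMD14 was low in Landrace replicate 1 in particular. The ubiquitin receptor PSMD4 had 215 and 246 FPKM in the Jinhua animals and 101 and 161 FPKM in the Landrace animals, and its difference was 0.84. PSMD2, the other large scaffold subunit, had 141.1 and 191 FPKM in the Jinhua animals and 108 and 140.8 FPKM in the Landrace animals, so Jinhua replicate 1 and Landrace replicate 2 were almost level. PSMD3 was the one gene of the class that overlapped, with a difference of 0.12 that turned to -0.059 under median-ratio scaling. The remaining PSMD8, PSMD11, PSMD12 and PSMD13 had differences between 0.33 and 0.63.

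**Figure D2:**
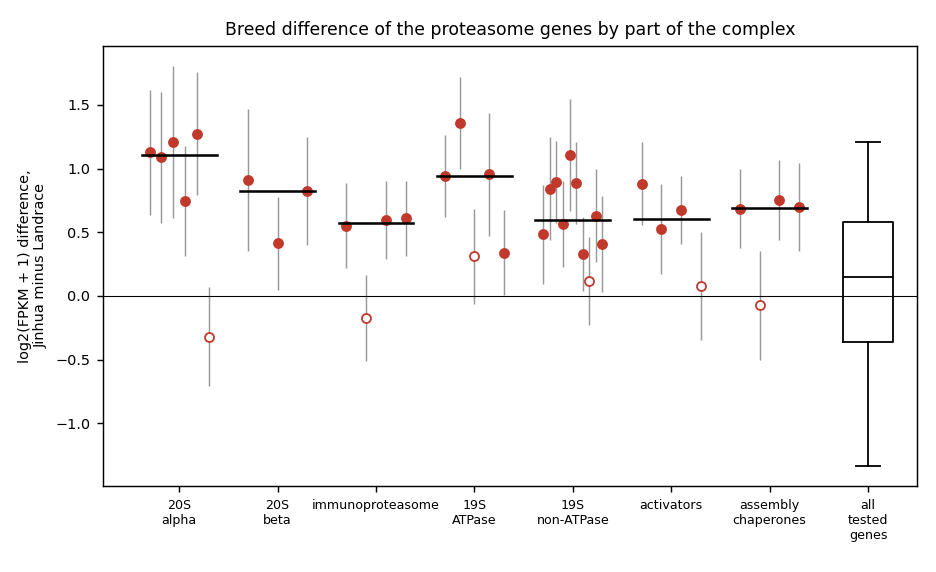
Jinhua minus Landrace difference of log2(FPKM + 1) for each tested subunit, activator and assembly gene by class, with limma standard errors as bars, class medians as black lines, filled points where the breeds were apart and open points where they overlapped. The box at the right spans the quartiles of all 13693 tested genes with whiskers at the 5th and 95th percentiles, and class medians of 0.58 to 1.11 lie above its median of 0.15.

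Of the 4 activator genes, 3 were apart and higher in Jinhua, with a median of 0.60. PSME1 and PSME2 encode the alpha and beta subunits of PA28, an interferon-induced ring that opens the 20S barrel. PSME1 had 225 and 172 FPKM in the Jinhua animals and 134 and 139 FPKM in the Landrace animals (log2 difference 0.53 ± 0.35 SE, limma adjusted p = 0.563). PSME2 had 109 and 92.6 FPKM in the Jinhua animals and 50.4 and 58.1 FPKM in the Landrace animals (0.88 ± 0.32, adjusted p = 0.496). In both genes the Landrace animals lay close together and the breeds were apart. PSME4, which encodes the single-chain activator PA200, was among the lowest, with levels of 13.6 and 13.4 FPKM in both Jinhua animals, against 8.14 and 8.04 FPKM in the Landrace animals (0.67 ± 0.27, limma adjusted p = 0.496). Its replicates nearly coincided within each breed. PSME3, the nuclear activator PA28 gamma, overlapped, with a difference of 0.08 that was -0.094 under median-ratio scaling.

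The assembly genes held PSMD5, a chaperone of the 19S base, and PSMG1 and PSMG3, chaperones of the 20S alpha ring. PSMD5 had 36.8 and 35.8 FPKM in the Jinhua animals and 18.3 and 24.3 FPKM in the Landrace animals under ENSSSCG00000030054 (log2 difference 0.75 ± 0.31 SE, limma adjusted p = 0.496). Under ENSSSCG00000005507 its difference was 0.69, also with the breeds apart. PSMG1 was apart with a difference of 0.70. PSMG3 had 28.5 and 54.8 FPKM in the Jinhua animals and 41.0 and 42.4 FPKM in the Landrace animals, so that both Landrace values fell between the Jinhua values. The non-subunit PSMC3IP had 1.10 and 2.37 FPKM in the Jinhua animals and 0.347 and 0.489 FPKM in the Landrace animals. Its mean of 1.08 FPKM passed the filter only through the Jinhua values. Without PSMC3IP the median over the other 36 genes was 0.68.

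Genes of the wider ubiquitin and proteasome pathway were read beside the subunits. Of 33 tested gene IDs (32 symbols matched of 42 listed), 28 had a difference above 0, against 58.0% of all tested genes. Apart and higher in Jinhua were 21, against 30.2%. The ubiquitin-activating enzyme UBA1 and the segregase cofactor NPLOC4, 2 of the 33, were apart and lower, against 18.1%. The list's median difference was 0.44, and limma called 0 after adjustment. At an unadjusted p under 0.05, 3 were higher and 0 lower, against 5.85% and 3.87% of all genes. Under median-ratio scaling, which moved the median of all genes to -0.00, the list's median was 0.27. There 13 were apart and higher, beside 3261 of all 13693 genes, and 1 was higher at that unadjusted p, beside 501. Leaving out Landrace replicate 1 gave a median of 0.26, and leaving out Landrace replicate 2 gave 0.67. Of the regulators of subunit genes, NFE2L1 had 171 and 188 FPKM in the Jinhua animals and 244 and 128 FPKM in the Landrace animals, with a log2 difference of 0.02 that was -0.16 under median-ratio scaling and -0.077 under quantile normalization. NFE2L2, the antioxidant response factor, had 90.3 and 74.2 FPKM in the Jinhua animals and 33.3 and 40.2 FPKM in the Landrace animals (1.14 ± 0.33 SE, limma adjusted p = 0.496). The first of these regulators thus overlapped between breeds and the second did not.

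UCHL5, a deubiquitinase bound to the 19S regulator, had 20.6 and 17.3 FPKM in the Jinhua animals and 4.80 and 10.95 FPKM in the Landrace animals, with a log2 difference of 1.25. The ubiquitin ligase UBE3A and the conjugating enzymes UBE2N and UBE2L3 were apart too, with differences of 0.81, 0.78 and 0.86. POMP, the maturation factor of the 20S core, had 73.2 and 52.7 FPKM in the Jinhua animals and 33.9 and 76.9 FPKM in the Landrace animals, so the breeds overlapped. Its difference of 0.28 was -0.30 without Landrace replicate 1. ADRM1 and USP14, further partners of the 19S regulator, were not analysed here.

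The antigen-processing genes, which share interferon control with the immunoproteasome and PA28, did not lie to one side. Of 16 gene IDs (14 symbols of 18 listed), 2 were apart and higher in Jinhua, against 30.2% of all tested genes. Apart and lower were 5, against 18.1%. The list's median difference was 0.17, and limma called 0. At an unadjusted p under 0.05, 1 was higher and 1 lower, where 5.85% and 3.87% of all genes were. That median changed sign with the animals kept: it was -0.099 without Jinhua replicate 1 and -0.17 without Landrace replicate 1, but 0.45 when replicate 2 of either breed was left out, and 0.0022 under median-ratio scaling. ERAP1, the peptide-trimming peptidase, had 14.6 and 14.1 FPKM in the Jinhua animals and 6.83 and 5.28 FPKM in the Landrace animals. The breeds were apart, with a log2 difference of 1.13. TAPBP, which loads peptide onto class I molecules, had 27.1 and 29.4 FPKM in the Jinhua animals and 87.8 and 55.7 FPKM in the Landrace animals, a difference of -1.28 (limma adjusted p = 0.496). IRF1 and B2M overlapped, with differences of 0.46 and 0.55, and B2M stood at -0.13 without Landrace replicate 1.

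Some proteasome genes lie beside these genes in the pig genome. In RefSeq's Sscrofa11.1 gene order, PSMB8 stands between TAP2 and TAP1, PSMB9 stands next to TAP1, and PSME2 and PSME1 are separated by EMC9 alone. The peptide transporter gene TAP2 had 7.78 and 7.62 FPKM in the Jinhua animals and 13.1 and 13.4 FPKM in the Landrace animals under ENSSSCG00000025593, a log2 difference of -0.71 (limma adjusted p = 0.496). TAP1 differences were 0.06 under ENSSSCG00000020893, which was -0.11 under median-ratio scaling and -0.011 under quantile normalization, and -0.36 under ENSSSCG00000025618. PSMB8 and its neighbour TAP2 therefore had differences of opposite sign, both with the breeds apart.

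The m6A peak lists give positions on transcripts with no score, so they tell in which library a peak was listed and not how strong it was. The lists held 20688 and 16116 peaks for the Jinhua animals, and 8909 and 19039 peaks for the Landrace animals. At least 1 peak was listed on 33 and 33 of the 39 proteasome gene IDs in the Jinhua libraries, and on 22 and 30 in the Landrace libraries. All of these were among the 37 tested, of which they made 89.2% and 89.2% in Jinhua, and 59.5% and 81.1% in Landrace. Over all tested genes, 63.6% and 53.6% carried a peak in the Jinhua libraries, and 35.0% and 59.2% in the Landrace libraries. In each library the proteasome genes with a peak had a higher median FPKM than the tested ones without. The medians were 67.0 against 27.7 in Jinhua replicate 1 and 66.6 against 48.1 in Jinhua replicate 2. They were 59.1 against 20.01 in Landrace replicate 1 and 57.3 against 24.3 in Landrace replicate 2. In the same order of libraries, the groups without a peak held 4, 4, 15 and 7 genes. Among genes with a mean FPKM of at least 20, 27 and 26 of 29 proteasome genes carried a peak in the Jinhua libraries, and 18 and 24 in the Landrace libraries. The shares over all genes at that level were 81.9% and 74.6% in the Jinhua libraries, and 63.6% and 80.7% in the Landrace libraries.

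A peak in every library was listed for 21 proteasome genes, all of them tested genes, against 30.4% of all tested genes. With the mean FPKM at 20 or more, it was 17 of 29 (58.6%), against 57.2%, which is near the background. No peak was listed in any library for PSMA8, PSMB11, PSMC3IP and PSMG3. Of these only PSMG3 was well expressed, at a mean of 41.7 FPKM. PSMC3IP and PSMG3 were the 2 of the 37 tested genes with none, against 27.8% of all tested genes. With the mean FPKM at 20 or more, 1 of 29 had none, against 12.9%. A peak in both Jinhua libraries and neither Landrace library was found on PSMA5 and PSMC6, against 4.36% of tested genes, and the reverse on 0, against 0.767%. For PSMA5 the Jinhua peaks did not overlap each other, at bases 518 to 671 in replicate 1 and 1 to 127 in replicate 2. For PSMC6 they shared bases 9 to 159 of the transcript, in the coding sequence. Both genes also had less input RNA in Landrace, and the shortest list belonged to Landrace replicate 1, so the part of level and list length in these absences was not tested.

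**Figure D3:**
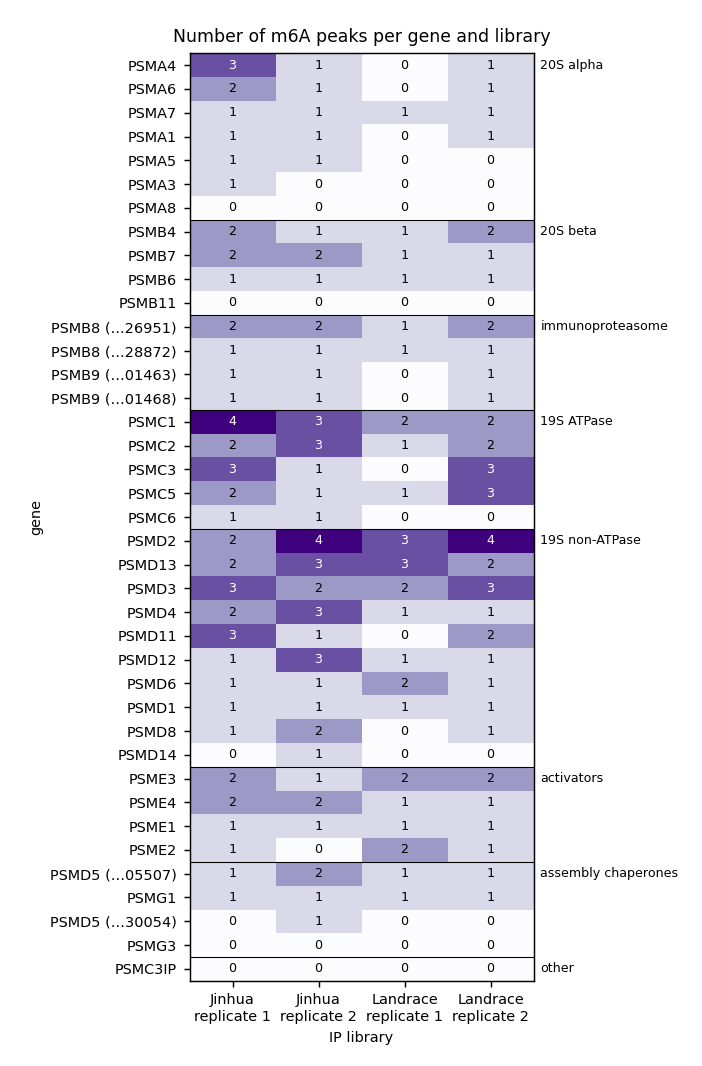
Number of m6A peaks listed for each of the 39 proteasome gene IDs (rows, by class) in each IP library (columns, Jinhua left of Landrace). The column of Landrace replicate 1 has the most zeros, with peaks on 22 of 39 genes, and the 19S rows hold the highest counts.

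Peaks by class are given as counts, with no test between classes. Of the 20S alpha genes, 6 of 7 had a peak in some library and 1, PSMA7, in all 4, and all 3 beta genes listed above 0, which had higher FPKM levels, had one in all 4. The 5 ATPases of the 19S regulator carried 35 peaks in 12 regions and the 10 non-ATPases 66 peaks in 27 regions. Most regions were found on PSMD2, with 5, and PSMD4, with 4. PSMD2 carried 2 and 4 peaks in the Jinhua libraries and 3 and 4 in the Landrace libraries, and its regions at bases 55 to 303 and 1867 to 2203 were found in all 4. PSMD4 carried 2 and 3 peaks in the Jinhua libraries and 1 and 1 in the Landrace libraries, and only the region at bases 981 to 1150, across the end of the coding sequence, was shared by all 4.

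Of the 184 peaks on proteasome genes, 144 lay in coding sequence, 34 in 3' UTRs and 6 in 5' UTRs. The coding share was 78.2% (95% Wilson interval 65.6 to 87.1) and 80.8% (68.1 to 89.2) in the Jinhua libraries, and 74.2% (56.8 to 86.3) and 78.3% (64.4 to 87.7) in the Landrace libraries. Over all peaks it was 72.8% and 73.0% in the Jinhua libraries, and 71.7% and 73.6% in the Landrace libraries, within each of those intervals, which cover counting error only. All 35 ATPase peaks were in coding sequence, and 7 of the 17 peaks on immunoproteasome genes were in 3' UTRs, all from 2 regions on the PSMB8 IDs (732 to 897 in 3 libraries and 1080 to 1244 in 4). Peaks per marked gene numbered 1.67 and 1.58 in the Jinhua libraries, and 1.41 and 1.53 in the Landrace libraries, fewer than the 2.36 and 2.19 in the Jinhua libraries and 1.86 and 2.34 in the Landrace libraries over all genes.

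Merged by an overlap of at least 1 base, the 184 peaks formed 70 regions. Of these, 21 were found in all 4 libraries, 13 in 3, 13 in 2 and 23 in 1. The regions common to all libraries lay on 20 genes and had a median width of 188 bases. Near the transcript start they included PSMB4 (bases 1 to 178), PSMB6 (69 to 230), PSMC2 (29 to 212), PSMC5 (23 to 220), PSMD12 (15 to 174) and PSMG1 (24 to 210), all in coding sequence, and PSMD1 (39 to 236) in the 5' UTR. Toward the other end they included the 3' UTR regions of PSMB8 (1080 to 1244, ENSSSCG00000028872), PSMD13 (1045 to 1408) and PSME4 (5453 to 5608). PSMB7 (706 to 1002) had its common region across the end of the coding sequence. Common regions were listed both on genes whose input values were apart between the breeds, such as PSMC2, and on genes whose values overlapped, such as PSMD3 (137 to 464).

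**Figure D4:**
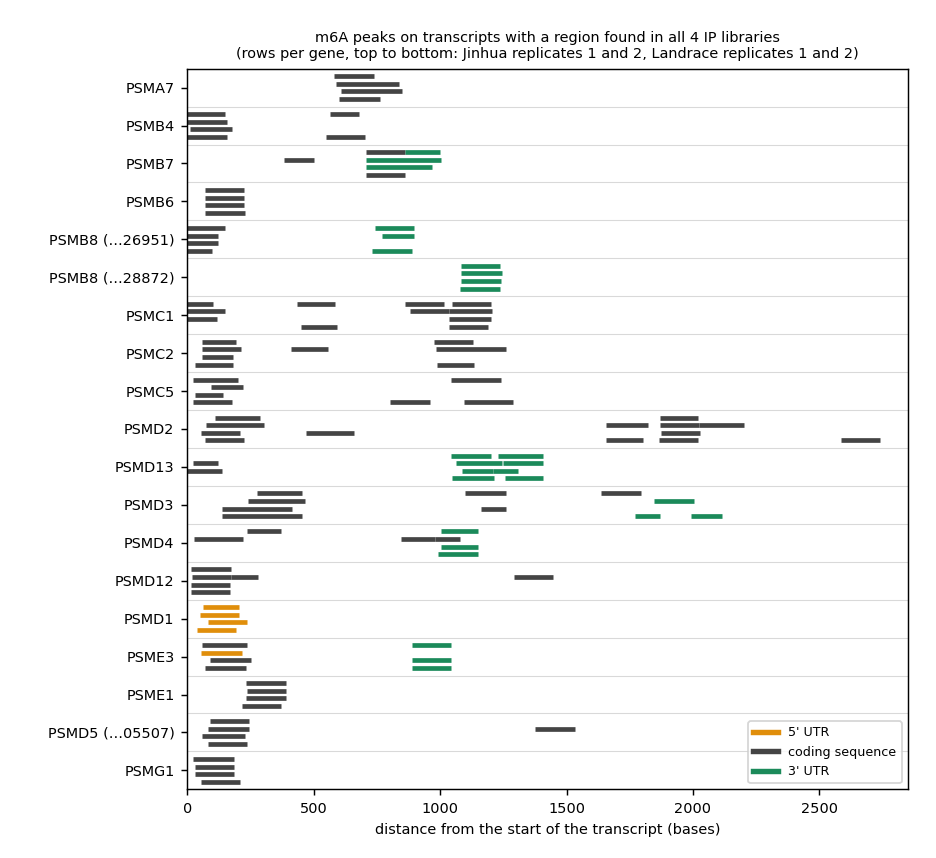
Peaks on 19 proteasome transcripts that carry a region found in all 4 libraries, by distance from the transcript start in bases, with 4 lines per gene for Jinhua replicates 1 and 2 and, below them, Landrace replicates 1 and 2, coloured by the part of the transcript. Stacks of 4 bars mark the common regions, many of them within the first 300 bases. PSME4, with its region at bases 5453 to 5608, lies beyond the axis and is not drawn.

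Peak positions were shared between breeds as well as within them. Of the 55 and 52 peaks of the Jinhua libraries, 69.1% and 69.2% overlapped a peak of the other Jinhua animal. Overlap with Landrace replicate 2 was 72.7% and 61.5%, and with Landrace replicate 1, which had the shortest list, 50.9% and 51.9%. Of the 31 peaks of Landrace replicate 1, 90.3% and 80.6% overlapped a peak of Jinhua replicate 1 and 2, and 83.9% overlapped one of Landrace replicate 2. Of the 46 peaks of Landrace replicate 2, 87.0% and 71.7% overlapped Jinhua replicate 1 and 2, and 54.3% overlapped Landrace replicate 1. Over all peaks, 59.9% and 75.2% of the Jinhua lists overlapped the other Jinhua list. For Landrace replicate 2 these shares were 68.5% and 65.2%, and for Landrace replicate 1 they were 34.4% and 40.9%. Of all peaks of Landrace replicate 1, 76.1% and 71.0% overlapped Jinhua replicate 1 and 2, and 80.7% overlapped Landrace replicate 2. Of all peaks of Landrace replicate 2, 74.3% and 56.0% overlapped Jinhua replicate 1 and 2, and 39.8% overlapped Landrace replicate 1. The differences between the proteasome shares and these were not tested.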

How the data were processed

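Adipose tissue of 4 pigs gave 4 input and 4 m6A IP libraries. Per the labels' protocols, mRNA was purified on beads, sonicated mRNA for the IP was bound by an m6A antibody, and the library kit was a stranded one. The submitters' processing notes name TopHat2 2.0.14, Sscrofa10.2 and susScr3. The quantifier, the use of strand in counting and the caller of the peaks are not given in the sources used here. For expression, the authors deposited 1 value per gene and input library, taken here as FPKM, that is, scaled by gene length and library size. No header names that unit; it was inferred from how the gene column is labelled and from the range of the values. Peaks were deposited by the authors as a separate list for every IP library, with transcript positions and without scores. A further 4 expression columns and 4 peak lists match none of these samples and were not analysed here.

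Members and gene lists were chosen with earlier results of these data known. The pathway, antigen-processing and marker lists were matched by symbol. Levels were tested with limma 3.58.1 (R 4.3.3), as a two-sided moderated test whose variance follows the mean level, on log2(FPKM + 1), a scale that understates changes of low genes. It covered the 13693 gene IDs whose FPKM averaged 1 or more, with Benjamini-Hochberg adjustment over all of them. The step was checked on simulated data, with planted changes larger than any proteasome difference found here. The check therefore does not tell whether differences of the size found would be called. Values per library are given for the catalytic subunits, PSME1 and PSME2, the 3 highest and 3 lowest tested genes, the 10 with the smallest p, the genes with most peak regions, and those without a peak; PSMA7 was added after its values were seen. PSMD2 and PSMD4 had the most regions, and the genes tied at 3 regions are not listed in full. Named from the lists were 10 chosen genes and the 3 others with the smallest p in each, of which 1 is not reported here. "Apart" means that both animals of a breed lay above both of the other. Same-numbered animals did not deviate together (correlation across genes -0.384), so replicate numbers were not used as pairs. Alternatives were another pseudocount, filters, scalings, left-out animals, a replicate block, minimum peak width and overlap.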

Additional observations from a re-analysis of the deposited data

How the results depend on the processing

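Called genes, 2 higher and 3 lower in Jinhua over all tested genes, numbered 0 in each direction with median-ratio scaling and with any animal left out, and 1 was called higher with no filter on low values. With the replicate number as a block, 0 were called higher and 0 lower. Pairing the numbers crosswise, chosen after seeing the data, gave 0 and 0 as well. At an unadjusted p under 0.05 the replicate block gave 1 proteasome gene higher, against 5 without it, and 0 pathway genes, against 3. Over all 13693 tested genes, 320 were higher with that block, against 801 without it. Of the same 13693 genes, 4132 were apart and higher and 2480 apart and lower in the main setting. These counts became 3261 and 3187 with median-ratio scaling, and 3821 and 2716 with quantile normalization. No proteasome gene was called under any setting, and the 31 genes apart and higher became 26 with median-ratio scaling and 29 with quantile normalization. Genes apart and lower, 0 in the main setting, were 1 under each of these scalings and 0 to 2 with an animal left out. In the pathway list, 13 were apart and higher with median-ratio scaling, and 2 to 5 were apart and lower with an animal left out. In the antigen-processing list, leaving out an animal gave 2 to 10 apart and higher and 5 to 9 apart and lower, since fewer animals lie apart more easily. Class medians with median-ratio scaling were 0.41 for immunoproteasome genes and 0.77 for ATPases. With an animal left out they ranged from 0.48 to 1.69 (20S alpha), 0.25 to 1.18 (20S beta), 0.36 to 0.65 (immunoproteasome) and 0.47 to 1.03 (ATPases), lowest in each without Landrace replicate 1. The cause was not tested.

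Signs turned for genes near 0. Median-ratio scaling gave -0.059 for PSMD3, -0.094 for PSME3, -0.11 for TAP1 (ENSSSCG00000020893) and -0.16 for NFE2L1, and quantile normalization gave -0.011 for that TAP1 ID and -0.077 for NFE2L1. With an animal left out, differences ranged from -0.65 to 0.0094 for PSMA7, -0.46 to 0.11 for PSMB9 (ENSSSCG00000001468), -0.055 to 0.29 for PSMD3, -0.36 to 0.52 for PSME3, -0.53 to 0.39 for PSMG3, -0.13 to 1.23 for B2M, -0.22 to 0.34 for that TAP1 ID, -0.44 to 0.48 for NFE2L1 and -0.30 to 0.86 for POMP.

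With peaks of at least 150 bp alone, 13 proteasome genes had a peak in all libraries, against 21 with all peaks. This drop was not compared with that of all genes. A stricter peak threshold was not run because the lists hold no score. With 2 animals per breed and unknown depth, small differences were not detectable.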

Other observations

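Peaks on proteasome genes lay close to the start of the listed transcript more often than peaks at large. A window of the first 300 bases, chosen after seeing the positions, held the centre of 78 of the 184 proteasome peaks (42.4%) and of 20.2% of all 64752 peaks. By library, the shares were 36.4% and 42.3% of the proteasome peaks in the Jinhua libraries, and 54.8% and 41.3% in the Landrace libraries, beside 18.8% and 19.2% of all peaks in the Jinhua libraries, and 22.4% and 21.5% in the Landrace libraries. Of the 21 regions found in all 4 libraries, 11 were centred in the window, each on a gene of its own. Some of these peaks began at base 1 and were labelled coding sequence, as on PSMB4. Whether base 1 of a listed transcript is its start in the tissue was not analysed. Peaks of a gene are not independent, transcript lengths were not analysed here, and no test was made.

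Both IDs of PSMB9 were marked in the same 3 libraries, with a coding region at bases 106 to 324 of ENSSSCG00000001463 and at bases 1 to 159 of ENSSSCG00000001468, and neither was marked in Landrace replicate 1. Of the regions found in a single library, 7 and 12 belonged to the Jinhua libraries, and 1 and 3 to the Landrace libraries. PSMA3 had the widest ratio of highest to lowest library among the 20S genes, 4.59, between Jinhua replicate 1 and Landrace replicate 1, and PSMD3 had the narrowest among the 19S genes, 1.30.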
